A study of Mus musculus with 9 samples.

Results

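The 8 genes studied encode transcription factors of mesenchyme and of the epithelial-mesenchymal transition (EMT), and they were followed across 3 lines of mouse embryonic fibroblasts. They are the paired-related homeobox genes Prrx1 and Prrx2, the basic helix-loop-helix (bHLH) genes Twist1 and Twist2, the Snail zinc finger genes Snai1 and Snai2, and the zinc finger homeobox genes Zeb1 and Zeb2. These 8 of the 24647 genes on the arrays were picked by symbol and family, with earlier results of these data known. The shares of all clusters given beside their counts are therefore a description and no test of enrichment. All 8 were on the array, on 9 of its 41345 transcript clusters (sets of probes for 1 transcript unit). Each gene was represented by its brightest cluster, chosen by the mean over all 9 arrays and not by any difference between groups. The choice mattered for Zeb2 alone, whose 2 clusters averaged 7.60 and 4.61 on the log2 scale.

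RNA came from 9 culture dishes, 3 of each line, and each dish was read on 1 Affymetrix array. The lines are named vector control, human APE1 (hAPE1) and mouse Ape1 (mApe1). All 3 groups share 1 background, which is male, described as isogenic to C56BL/6, mApe1-/- and transgenic for human APE1 (hAPE1TG). APE1 is an endonuclease of base excision repair that also acts as a redox factor on transcription factors. The labels put Ape1 in this background at 0.2% of the level of normal fibroblasts, and a note in the authors' deposited table sets APE1 in the vector control against the other lines at about 1:500. The design text asks how human and mouse APE1, being so alike in sequence, each shape gene expression. Each group is 1 cell line, so an effect of the introduced gene and a difference between lines cannot be told apart, and the p-values measure the spread between dishes of a line. The sources used here do not say how the introduced genes were delivered. Apex1 is not analysed here, so the labels were not checked against the targeted gene.

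EMT is the switch by which epithelial cells lose their junctions and become motile mesenchymal cells. SNAI and ZEB proteins bind short E-box motifs in promoters of epithelial genes such as Cdh1 (E-cadherin) and recruit corepressors there. TWIST proteins bind E-boxes as dimers with E proteins, the ID proteins block such dimers, and microRNAs of the miR-200 family restrain ZEB mRNAs. Embryonic fibroblasts are mesenchymal already, and in the embryo PRRX and TWIST factors are best known for limb and craniofacial mesenchyme.

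Array medians ran from 5.64 to 5.75 on the log2 scale, and the 8 genes were above them on all 9 arrays. Of 10 fibroblast markers, 6 were above the array median on all arrays, among them Col1a1 and Vim, and Lum was below the 25th percentile on all 9. Their summed log2 level was 88.4 to 89.0 in vector control, 79.0 to 80.3 in human APE1 and 82.0 to 82.8 in mouse Ape1. Relative to vector control, 7 of the 10 fell in human APE1, and 2 rose and 6 fell in mouse Ape1. Over all clusters, 6.35% fell in human APE1, and 9.09% rose and 7.07% fell in mouse Ape1. The largest marker difference was that of Dcn, -3.06 in human APE1 and -3.29 in mouse Ape1. The markers that rose in mouse Ape1 were Col1a2 (0.52) and Vim (0.34). Of 8 epithelial markers, none passed in any comparison. Their summed level was 44.0 to 44.8, 44.1 to 44.6 and 44.4 to 44.5 in the same order, with Cdh1 at 5.73, 5.69 and 5.63 and Epcam at 4.35, 4.43 and 4.36. Of 5 markers each, relative to vector control, 2 adipocyte, 1 cartilage and bone and 1 neural marker fell in human APE1, while in mouse Ape1 1 endothelial and 1 neural marker rose and 1 adipocyte and 1 muscle marker fell. No macrophage marker passed. The part of the marker shift in the results below was not tested.

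In the human APE1 line, 5 of the 8 genes differed from vector control (limma, Benjamini-Hochberg adjusted p under 0.05 over all clusters). Prrx2 was higher, and Twist2, Snai1, Snai2 and Zeb1 were lower. Over all clusters 11.8% passed this test, 5.4% higher and 6.35% lower. Among the 7969 genes whose mean level lay within the range of the 8 genes, 32.4% passed. The 2 groups of arrays did not overlap for 6 of the 8 genes, against 26.7% of all clusters. The median difference of the 8 genes was -0.34, and that of all genes was 0.00.

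In the mouse Ape1 line, all 8 differed from vector control. Twist1 and Zeb2 were higher, and Prrx1, Prrx2, Twist2, Snai1, Snai2 and Zeb1 were lower. Over all clusters 16.2% passed, 9.09% higher and 7.07% lower, and 39.6% of genes in the same range of levels did. The arrays of the lines did not overlap for any of the 8, against 33.1% of all clusters that did not overlap. The median difference of the 8 genes was -0.58, and that of all genes was -0.03. The count was 5 without vector control replicate 2 and 5 without mouse Ape1 replicate 3, and Prrx2, Twist1 and Zeb2 were the calls lost each time.

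Between the introduced genes, 7 of the 8 differed. Prrx1, Prrx2, Twist2 and Zeb1 were higher in human APE1, and Twist1, Snai2 and Zeb2 were higher in mouse Ape1. Over all clusters 12.4% passed, 4.91% higher in human APE1 and 7.5% lower, and 34.2% of genes in the same range of levels did. The arrays did not overlap for any of the 8, against 28.7% of clusters. The F-test over all 3 lines was passed by all 8 genes and by 20.4% of clusters. The comparisons share arrays, so they are set side by side and their likeness is not measured.

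**Figure D1:**
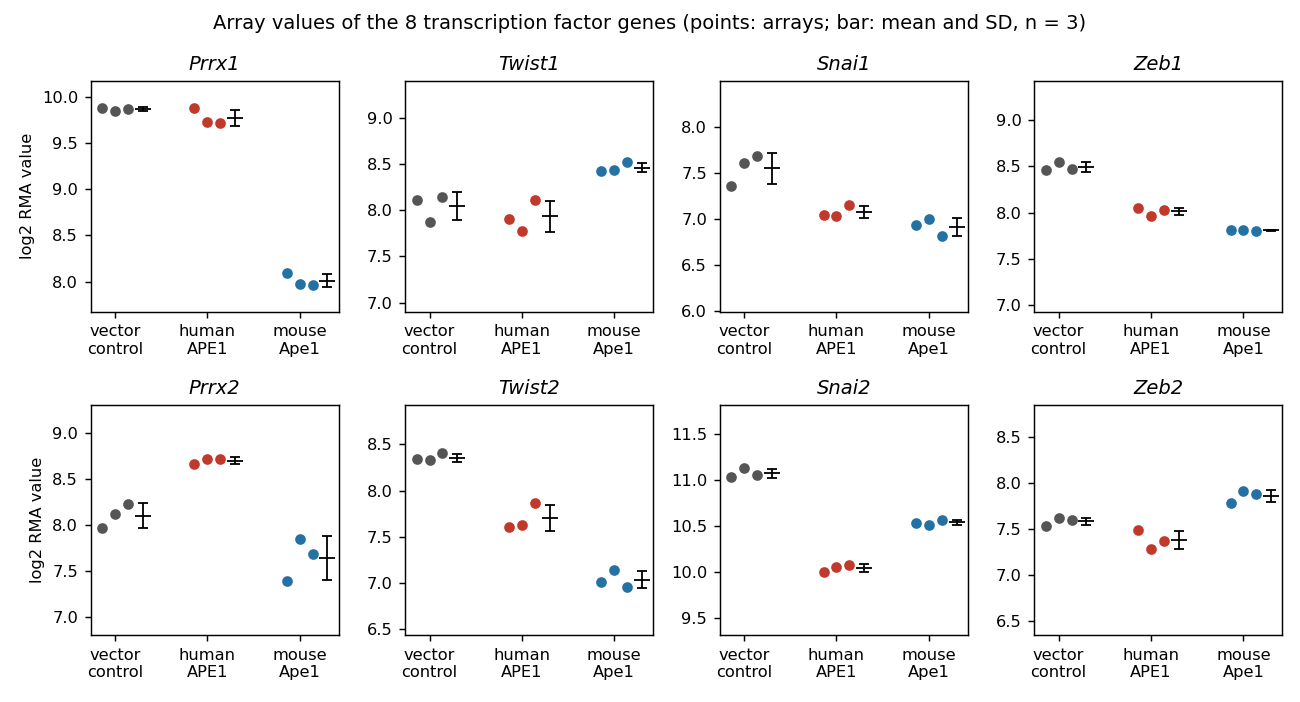
Log2 RMA value (vertical axes, each spanning 2.5 log2 units) of the 8 genes on each of the 9 arrays, by line, with the mean and SD of 3 arrays as black bars. Prrx1 stands about 1.8 log2 units lower in mouse Ape1 than in both other lines, and Snai2 is lowest in human APE1.

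Prrx1 showed the widest gap of the 8 genes. Its log2 values were 9.89, 9.85 and 9.87 in vector control, 9.88, 9.73 and 9.71 in human APE1, and 8.09, 7.97 and 7.96 in mouse Ape1. The mouse Ape1 arrays lay below all others, while those of vector control and human APE1 overlapped. Prrx1 fell by 1.86 log2 units in mouse Ape1 relative to vector control (SE 0.07, 3.63-fold lower, adjusted p = 2.95e-06). It was 1.76 higher in human APE1 than in mouse Ape1 (adjusted p = 5.24e-06). The difference between human APE1 and vector control was -0.10 (95% interval -0.25 to 0.06, adjusted p = 0.441), and -0.15 without human APE1 replicate 1 (adjusted p = 0.263).

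Its paralogue Prrx2 had another order. Values were 7.96, 8.12 and 8.23 in vector control, 8.66, 8.72 and 8.72 in human APE1, and 7.39, 7.85 and 7.69 in mouse Ape1. The 3 lines did not overlap, and mouse Ape1 replicate 1 was the lowest array. Prrx2 was 0.60 higher in human APE1 than in vector control (adjusted p = 0.0157) and 0.46 lower in mouse Ape1 (difference -0.46, adjusted p = 0.0356). Human APE1 exceeded mouse Ape1 by 1.06 (SE 0.12, adjusted p = 0.000911). The gap between mouse Ape1 and vector control missed the threshold when any array but vector control replicate 1 or mouse Ape1 replicate 2 was left out, with adjusted p = 0.0521 to 0.105. That between human APE1 and vector control missed it when vector control replicate 1 (adjusted p = 0.0535) or human APE1 replicate 2 (adjusted p = 0.0559) was dropped.

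**Figure D2:**
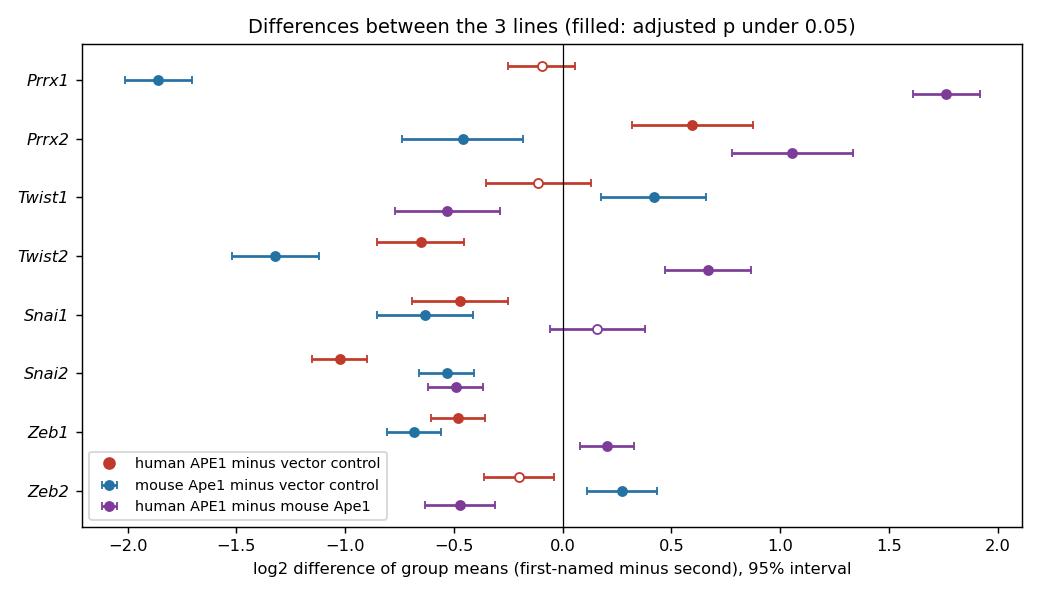
Log2 difference of group means (horizontal axis) for each gene in the 3 comparisons, with 95% intervals of the limma fit, 3 arrays per line. Filled points passed at an adjusted p under 0.05, and the widest differences are those of Prrx1 in mouse Ape1, at -1.86 against vector control.

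The TWIST pair moved in opposite directions in mouse Ape1. The 250 bases before the RefSeq start of each (assembly GRCm38.p6, plus strand) are shown because the pair diverges. Neither window holds CACCTG, the E-box letters bound by SNAI and ZEB proteins, on either strand. The windows are chr12:33957421-33957670 for Twist1 and chr1:91801211-91801460 for Twist2.
Twist1: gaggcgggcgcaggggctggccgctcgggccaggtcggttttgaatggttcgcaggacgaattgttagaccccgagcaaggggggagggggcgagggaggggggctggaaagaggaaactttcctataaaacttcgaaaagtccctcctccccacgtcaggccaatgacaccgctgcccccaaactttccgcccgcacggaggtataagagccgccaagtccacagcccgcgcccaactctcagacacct
Twist2: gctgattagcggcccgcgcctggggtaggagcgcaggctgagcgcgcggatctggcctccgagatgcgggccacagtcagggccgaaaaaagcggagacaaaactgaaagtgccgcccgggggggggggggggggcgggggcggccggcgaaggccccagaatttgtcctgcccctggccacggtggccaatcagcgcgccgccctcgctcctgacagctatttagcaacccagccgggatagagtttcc

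Twist2 was graded across the lines. Values were 8.34, 8.33 and 8.41 in vector control, 7.61, 7.63 and 7.87 in human APE1, and 7.01, 7.14 and 6.96 in mouse Ape1. No 2 lines overlapped. Relative to vector control, Twist2 fell by 0.65 in human APE1 (SE 0.09, adjusted p = 0.00237) and by 1.32 in mouse Ape1 (adjusted p = 5.03e-05). Human APE1 exceeded mouse Ape1 by 0.67 (adjusted p = 0.00172).

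Twist1 values were 8.11, 7.87 and 8.15 in vector control, 7.90, 7.78 and 8.11 in human APE1, and 8.43, 8.44 and 8.52 in mouse Ape1. The mouse Ape1 arrays lay above all others, and the other lines overlapped, with a difference of -0.11 (95% interval -0.35 to 0.13, adjusted p = 0.590). That difference was -0.04 without human APE1 replicate 2, -0.06 without vector control replicate 3, and -0.20 when vector control replicate 2 or human APE1 replicate 3 was left out, and passed in none of these. Twist1 rose by 0.42 in mouse Ape1 relative to vector control (SE 0.10, adjusted p = 0.0300), and was lower in human APE1 than in mouse Ape1, by -0.53 (adjusted p = 0.0126). The gene lies on chromosome 12, where the median of 451 expressed genes was itself 0.36 higher in mouse Ape1 than in vector control. With chromosome medians subtracted, the Twist1 differences were 0.10 against vector control (adjusted p = 0.594) and -0.30 between the introduced genes (adjusted p = 0.106). The call against vector control was also lost when vector control replicate 1 or 2 or any mouse Ape1 array was left out (adjusted p = 0.0545 to 0.0971), and that between the introduced genes when mouse Ape1 replicate 3 was (adjusted p = 0.0516).

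**Figure D3:**
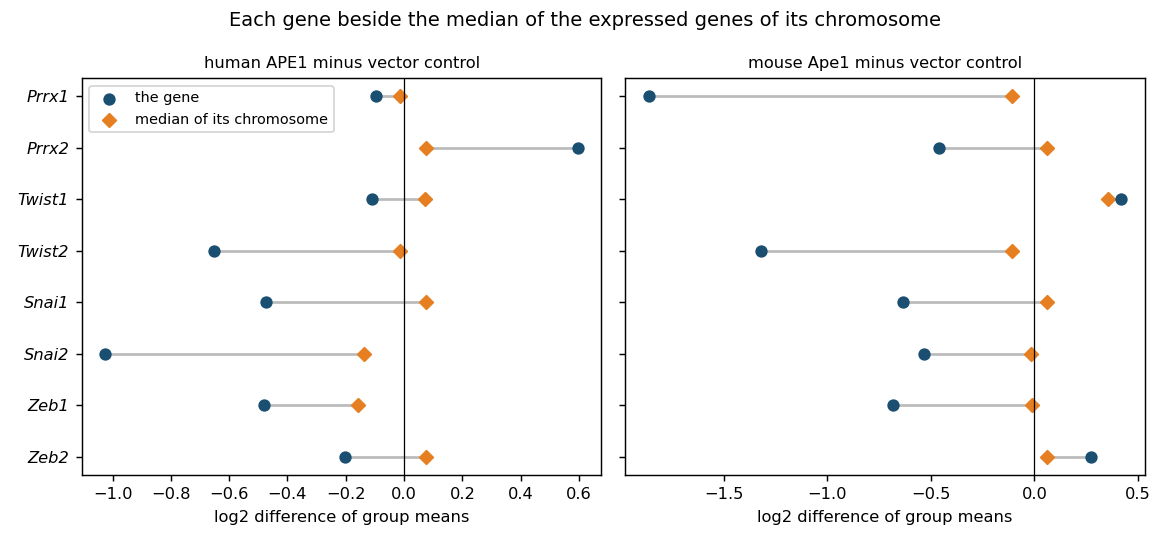
Log2 difference from vector control (horizontal axes) of each gene, as circles, beside the median difference of the expressed genes of its chromosome, as diamonds. In mouse Ape1 the circle of Twist1 (0.42) lies next to its diamond (0.36), whereas the circle of Prrx1 (-1.86) lies far from its own (-0.11).

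Snai1 and Snai2, which encode the repressors Snail and Slug, were both highest in vector control. The 250 bases before the RefSeq start of Snai1 (GRCm38.p6, chr2:167537945-167538194, plus strand) are shown because CACCTG, in capitals, stands in them once, beginning 126 bases before the start. The windows of Prrx1, Prrx2 and every start of Zeb2, like those of Twist1 and Twist2, do not hold it. Of 32851 promoter windows of this length, 17.2% hold CACCTG on at least 1 strand. A match of letters is a description and no binding site was measured. The motif was searched after the values were seen.
Snai1: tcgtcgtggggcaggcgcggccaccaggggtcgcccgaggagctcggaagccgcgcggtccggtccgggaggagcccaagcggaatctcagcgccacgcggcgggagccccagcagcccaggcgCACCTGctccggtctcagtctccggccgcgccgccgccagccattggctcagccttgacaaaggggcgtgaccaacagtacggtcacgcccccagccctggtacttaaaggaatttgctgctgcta

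Snai1 values were 7.36, 7.61 and 7.68 in vector control, 7.04, 7.04 and 7.16 in human APE1, and 6.94, 7.00 and 6.81 in mouse Ape1. Each vector control array exceeded all 6 others. Relative to vector control, Snai1 fell by 0.47 in human APE1 (SE 0.10, adjusted p = 0.0160) and by 0.63 in mouse Ape1 (adjusted p = 0.00325). Human APE1 and mouse Ape1 did not overlap, but their difference of 0.16 did not pass (95% interval -0.06 to 0.38, adjusted p = 0.379). The human APE1 call was lost when replicate 2 or 3 of vector control, or 1 or 2 of human APE1, was left out (adjusted p = 0.0517 to 0.0598).

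Snai2 values were 11.04, 11.13 and 11.05 in vector control, 10.00, 10.06 and 10.08 in human APE1, and 10.54, 10.51 and 10.57 in mouse Ape1. The lines were separate, with mouse Ape1 between the others. Relative to vector control, Snai2 fell by 1.02 in human APE1 (SE 0.06, 2.03-fold lower, adjusted p = 2.52e-05) and by 0.53 in mouse Ape1 (adjusted p = 0.000524). Human APE1 lay below mouse Ape1, with a difference of -0.49 (adjusted p = 0.000837). Of these 8 genes, Snai2 alone was lower in human APE1 than in mouse Ape1 and lower in both than in vector control, each past the threshold.

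Zeb1 and Zeb2, whose proteins repress epithelial genes and are held down by miR-200, went in opposite directions in mouse Ape1. Zeb1 values were 8.46, 8.55 and 8.47 in vector control, 8.04, 7.97 and 8.02 in human APE1, and 7.81, 7.81 and 7.80 in mouse Ape1. No 2 lines overlapped. Relative to vector control, Zeb1 fell by 0.48 in human APE1 (SE 0.05, adjusted p = 0.00105) and by 0.68 in mouse Ape1 (adjusted p = 0.000126). Human APE1 exceeded mouse Ape1 by 0.20 (adjusted p = 0.0442), a call that was lost when any 1 of the 9 arrays was left out (adjusted p = 0.0540 to 0.125).

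Zeb2 values were 7.53, 7.61 and 7.59 in vector control, 7.49, 7.28 and 7.36 in human APE1, and 7.78, 7.90 and 7.87 in mouse Ape1. The 3 lines were separate, in the order mouse Ape1, vector control, human APE1. Zeb2 rose by 0.27 in mouse Ape1 relative to vector control (SE 0.07, adjusted p = 0.0330) and was lower in human APE1 than in mouse Ape1, by -0.47 (adjusted p = 0.00315). The gap between human APE1 and vector control, -0.20, did not pass (95% interval -0.36 to -0.04, adjusted p = 0.115). The rise was lost when any vector control array, or mouse Ape1 replicate 2 or 3, was left out (adjusted p = 0.0648 to 0.101). The dim second Zeb2 cluster ran from 4.08 to 5.11, was above the median on no array and passed in no comparison, and with both clusters averaged the mouse Ape1 difference was 0.05 (adjusted p = 0.806).

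The mature miR-200 family (RefSeq, GRCm38.p6) is shown because its seeds, bases 2 to 8 in capitals, are the part that pairs with ZEB mRNAs. The family falls into 2 seed groups, AAUACUG and AACACUG.
miR-200b-3p: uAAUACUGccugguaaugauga
miR-200c-3p: uAAUACUGccggguaaugaugga
miR-429-3p: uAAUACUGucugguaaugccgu
miR-200a-3p: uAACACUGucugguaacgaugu
miR-141-3p: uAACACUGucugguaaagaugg

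None of the genes of these microRNAs was above the array median on any array. Mir200b ran from 4.53 to 5.10 and Mir200c from 3.59 to 4.27. Mir141 ran from 2.53 to 3.17, below the 25th percentile on all arrays. Of 8 microRNA genes of this kind, none passed between human APE1 and vector control or between the introduced genes. Mir34a, whose product represses Snai1, rose by 0.40 in mouse Ape1 relative to vector control (adjusted p = 0.0444) at a level below the 25th percentile on 8 of 9 arrays. These clusters read gene transcripts or precursors, and mature microRNA was not measured.

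The bHLH partners and inhibitors of the TWIST factors were set beside them. Of 7 such genes, none passed between human APE1 and vector control, 4 fell in mouse Ape1, and between the introduced genes 4 were higher and 1 lower in human APE1. The shares of all clusters that passed in these comparisons were 11.8%, 16.2% and 12.4%. In the range of levels of the 8 factors, to which these genes were not matched, they were 32.4%, 39.6% and 34.2%. Id2, an ID inhibitor of E-box binding, averaged 10.43 ± 0.12 (SD, n = 3) in vector control, 10.35 ± 0.05 in human APE1 and 8.64 ± 0.11 in mouse Ape1. Id2 fell by 1.78 in mouse Ape1 relative to vector control (adjusted p = 1.05e-05), and Id1 fell by 0.71 (adjusted p = 0.00125). The E protein genes Tcf3, Tcf4 and Tcf12 differed by 0.00, -0.32 and 0.14 in the same comparison, and of these Tcf4 passed (adjusted p = 0.0285).

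Corepressors and regulators of protein stability were counted next. Of 19, 2 rose and 3 fell in human APE1, 3 rose and 1 fell in mouse Ape1, and 1 was higher and 2 lower in human APE1 than in mouse Ape1. Rcor1, a corepressor that works with the demethylase Kdm1a, rose by 0.45 in mouse Ape1 relative to vector control (adjusted p = 0.000728) and fell by 0.21 in human APE1 (adjusted p = 0.0295). Rcor1 lies on chromosome 12, whose median shift in mouse Ape1 was 0.36. Gsk3b, a kinase that marks Snail for degradation, rose by 0.25 in human APE1 (adjusted p = 0.0282) and by 0.24 in mouse Ape1 (adjusted p = 0.0266). The median differences of the list were -0.02, -0.03 and 0.02 in the 3 comparisons, in which 11.8%, 16.2% and 12.4% of all clusters passed.

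Other transcription factors known to induce EMT split both ways. Tcf3, Tcf4 and Tcf12 are in this list as well as among the bHLH genes above. Of 16, 2 rose and 1 fell in human APE1, 4 rose and 4 fell in mouse Ape1, and 3 were higher and 5 lower in human APE1 than in mouse Ape1. Beside these counts, 11.8%, 16.2% and 12.4% of all clusters passed. For genes in the range of levels of the 8 factors, to which the list was not matched, the shares were 32.4%, 39.6% and 34.2%. Foxq1 fell by 1.10 in mouse Ape1 (adjusted p = 0.00122), and Hmga2, a chromatin protein, rose by 0.63 (adjusted p = 0.000559). In human APE1, Sox4 rose by 0.47 (adjusted p = 0.00375) and Sox9 fell by 0.46 (adjusted p = 0.0147).

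Of 36 further transcription factors of mesenchyme, 3 rose and 8 fell in human APE1, 2 rose and 6 fell in mouse Ape1, and 7 were higher and 6 lower in human APE1 than in mouse Ape1. The shares of all clusters that passed were 11.8%, 16.2% and 12.4%. For genes in the range of levels of the 8 factors they were 32.4%, 39.6% and 34.2%. Several of the 36 were dimmer than that range. Tcf21, Msx1 and Hand2 were above the array median on no array, while others, such as Gli3, were above it on all 9. Tbx18, a T-box factor, fell by 1.45 in human APE1 (adjusted p = 0.000209), and Alx1, a homeobox factor of craniofacial mesenchyme, fell by 1.12 (adjusted p = 0.000679). Gli3, a Hedgehog pathway factor, rose by 0.61 there (adjusted p = 0.000589). In mouse Ape1, Osr2 fell by 0.91 (adjusted p = 0.000133) while its relative Osr1, also on chromosome 12 with its median shift of 0.36, rose by 0.66 (adjusted p = 0.000174). The list medians were -0.05, -0.12 and -0.03, beside 0.00, -0.03 and 0.03 over all genes.

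Epithelial genes that SNAI, ZEB and TWIST factors are known to repress were counted against the 11.8%, 16.2% and 12.4% of all clusters that passed in the 3 comparisons. All the epithelial markers above are in this list too, so the 2 counts are not separate. Of 30, 2 rose and 1 fell in human APE1, 0 rose and 1 fell in mouse Ape1, and 2 were higher and 1 lower in human APE1 than in mouse Ape1. The splicing regulator gene Esrp2 rose by 0.64 in human APE1 (adjusted p = 0.0105), and the desmosome gene Pkp2 fell by 1.44 (adjusted p = 0.000516). The list medians were 0.02, -0.02 and 0.07. Several of these genes were dim. Epcam, Cldn1, Ocln, Krt19 and Dsp were above the array median on no array, and Esrp1 and Elf3 were below the 25th percentile on all 9. Others, such as Krt8, Cldn3 and Crb3, were above the median on all 9. Differences of dim transcripts are compressed, so the low count cannot show that such genes did not respond. For Cdh1 the differences from vector control were -0.05 in human APE1 and -0.10 in mouse Ape1, with adjusted p = 0.796 and 0.492.

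**Figure D4:**
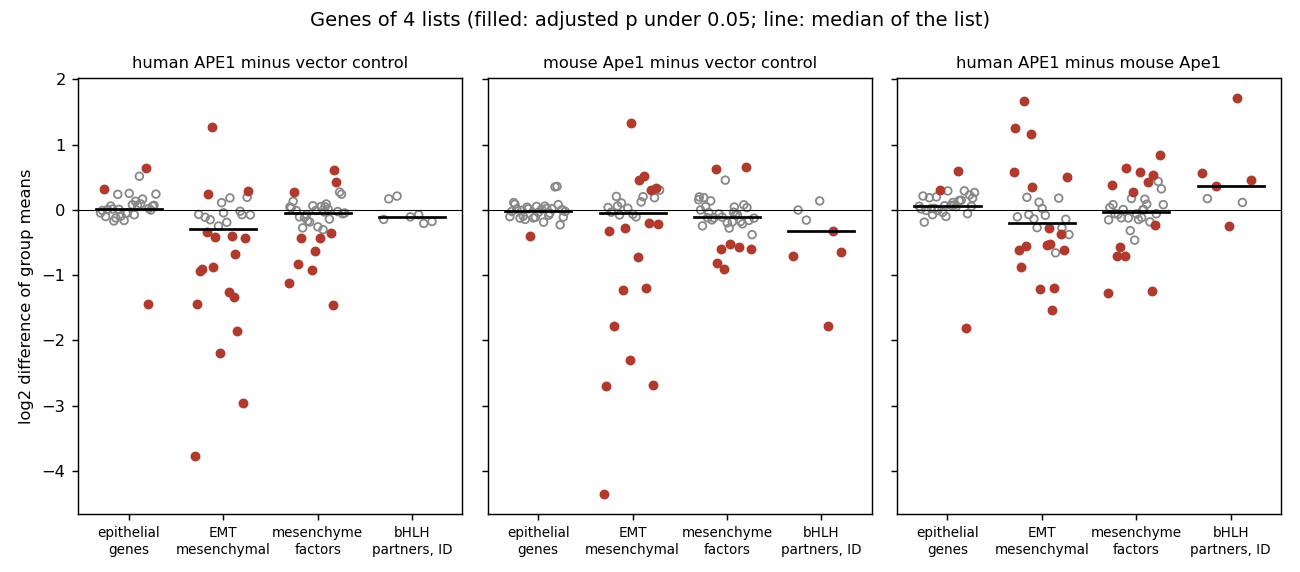
Log2 difference (vertical axis) of each gene of 4 lists in the 3 comparisons, filled where the adjusted p was under 0.05, with the list's median as a line. Epithelial genes lie near 0 apart from a few, while EMT mesenchymal genes spread from 1.27 (Vcan) to -3.77 (Acta2) in human APE1.

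Mesenchymal genes of EMT were counted against the same shares, which include many dim clusters. Among genes in the range of levels of the 8 factors, 32.4%, 39.6% and 34.2% passed. Of 30, 3 rose and 15 fell in human APE1, 5 rose and 12 fell in mouse Ape1, and 6 were higher and 11 lower in human APE1 than in mouse Ape1. Acta2, smooth muscle actin, fell by 3.77 in human APE1 (adjusted p = 1.45e-06) and by 4.35 in mouse Ape1 (adjusted p = 6.02e-07). Cdh11, a cadherin of mesenchyme, fell by 2.96 in human APE1 (adjusted p = 0.000287) and fell by 2.68 in mouse Ape1 (adjusted p = 0.000354). Cdh2 (N-cadherin) rose by 1.32 in mouse Ape1 (adjusted p = 4.14e-06), and Vcan (versican) rose by 1.27 in human APE1 (adjusted p = 0.000701). The list medians were -0.30, -0.05 and -0.21, and 8 of the 30 are among the fibroblast markers above. Fewer cells of a type and less RNA per cell cannot be told apart in these bulk samples.

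Signals that induce these factors were the last list. Of 29, 3 rose and 9 fell in human APE1, 5 rose and 14 fell in mouse Ape1, and 7 were higher and 7 lower in human APE1 than in mouse Ape1. In the same order of comparisons, 11.8%, 16.2% and 12.4% of all clusters passed. Among genes in the range of levels used above, to which this list was not matched, 32.4%, 39.6% and 34.2% passed. Tgfb3, a TGF-beta ligand, fell by 1.57 in human APE1 (adjusted p = 3.07e-05), and the Notch ligand gene Jag1 fell by 1.54 (adjusted p = 6.92e-06). In mouse Ape1, the receptor gene Fgfr1 fell (2.84-fold lower, adjusted p = 1.8e-05) and Bmp4 fell by 1.16 (adjusted p = 2.14e-05). The receptor gene Tgfbr1 rose in both lines, by 0.41 and 0.77 (adjusted p = 0.00399 and 0.000134). The list medians were -0.11, -0.17 and 0.00.

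For each factor the 3 genes of closest pattern were found by the root mean square (RMS) difference of centred log2 values over the 9 arrays. Those of Prrx1 were Fbn1 (0.096), which encodes the microfibril protein fibrillin, Id2 (0.113) and Pcdh17 (0.131). Fbn1 was 1.78 lower in mouse Ape1 than in vector control (difference -1.78), close to the -1.86 of Prrx1. Twist2 was closest to Tmem98 (RMS 0.040), and Zeb1 to Pxk (0.044). Snai2 was closest to Gsto1 and Dab2 (both 0.060), Zeb2 to Slc10a7 (0.048), Twist1 to Sik2 (0.056), Snai1 to Prkd2 (0.076) and Prrx2 to Serpinf1 (0.110). Such closeness is a description of 9 arrays from 3 lines.

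The authors' deposited table of their own 3-group test rests on another summary of the arrays. Their shorter table holds 7115 clusters, beside 41345 on the arrays, with adjusted p-values of up to 0.05 in that 3-group test. It lists 7 of the 8 genes, and the missing one is Twist1. In the authors' deposited table, the unadjusted p of Twist1 was 0.208 in the 3-group test. It was 0.292 for vector control against mouse Ape1. For Prrx1 the authors' deposited table gives a ratio of 2.82 for vector control over mouse Ape1. For vector control over human APE1 it gives 0.910 (authors' unadjusted p = 0.115). Prrx1 was thus slightly higher in human APE1 there, the opposite direction to the -0.10 found here, and neither difference passed. For Zeb2, human APE1 against vector control, the authors' deposited table gives an unadjusted p of 0.00561.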

How the data were processed

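Per the labels, the deposited array values are log2 RMA values from Expression Console (core-exon analysis) and came with no sequencing depth, so the 3 arrays per line limit the precision. RMA sets arrays to a common distribution and compresses differences of dim transcripts. Per the file headers, the authors' deposited test table holds group means on the log2 scale, unadjusted p-values and ratios, and a shorter table adds adjusted p-values. The submitters' processing notes name Partek. No source used here states the array design or the genome build.

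No value was changed before testing. limma 3.58.1 in R 4.3.3 (lmFit and eBayes, two-sided) fitted 3 group means over all 9 arrays, and p-values were adjusted over all 41345 clusters within each comparison, with 0.05 as the threshold. Rise and fall mean the sign of a passed difference. Named genes are the 8 factors and, from each list and comparison, up to 2 of the largest rises and 2 of the largest falls that passed, or genes needed as markers. The script was tested on simulated data with changes set in the human APE1 arrays. Against vector control it recovered 32 of 100 changes of 0.5 log2 units and 75 of 100 of 1.0, with 4 false calls. Far fewer clusters changed there than passed here, so these rates do not measure the power in these data. A difference that did not pass can still be a change that was missed. Members, lists and tests were chosen with earlier results of these data known. The range of levels used for a matched share and the motif search were chosen after values were seen. Alternatives were other normalizations, a filter on dim clusters, another variance prior, a replicate block, single arrays left out, fits on 6 arrays and averaged clusters. Sequences and chromosomes came from RefSeq tables of GRCm38.p6. Promoter windows were matched for 6 of the 8 genes, all but Snai2 and Zeb1.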

Additional observations from a re-analysis of the deposited data

Results flagged for a closer look

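For 3 genes the differences of the introduced genes from vector control had opposite signs, and the difference between human APE1 and mouse Ape1 passed. Prrx2 differed by 1.06 (higher in human APE1, lower in mouse Ape1, both passed). Twist1 differed by -0.53 and Zeb2 by -0.47, where the human APE1 difference from vector control did not itself pass. The Twist1 difference was -0.30 (adjusted p = 0.106) with chromosome medians subtracted.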

How the results depend on the processing

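Of 408 recomputed single-gene differences under alternatives, 361 kept their direction and side of the threshold, 46 lost a call, 1 gained one and 0 reversed. The filter on dim clusters, the variance prior, the replicate block and the fits of 6 arrays left each difference as it was. So did leaving out an array of the line not compared and, except for Zeb2, averaging clusters. Those alternatives could change the adjusted p but could not reverse a direction. Prrx1, Twist2 and Snai2 kept their calls in all comparisons. Single arrays left out gave 3 to 5 of the 8 genes passing for human APE1 against vector control, 5 to 7 for mouse Ape1 against vector control, 5 to 6 between human APE1 and mouse Ape1, and 7 to 8 in the F-test. The 3 for human APE1 arose without human APE1 replicate 2 (losing Prrx2 and Snai1), and the 5 for mouse Ape1 without vector control replicate 2 or mouse Ape1 replicate 3. Under the replicate block, which the numbers do not support as a pairing (correlations of same-numbered deviations -0.134 to 0.138), 5, 7 and 6 genes passed, with Zeb2 lost in mouse Ape1 against vector control (adjusted p = 0.0817) and Zeb1 between introduced genes (0.106). In mouse Ape1 against vector control, Zeb2 was also lost after a further quantile normalization (0.124) or with array medians (0.115) or chromosome medians (0.0623) subtracted, Twist1 after array medians were (0.0878), and Prrx2 in a fit of 6 arrays (0.0857). Between introduced genes, Zeb1 was lost after array medians were subtracted (0.0736) or in a fit of 6 arrays (0.0692), and Zeb2 with clusters averaged (0.0642). With dim clusters left out, Zeb2 passed in human APE1 against vector control (0.0476). Zeb1 between introduced genes was 0.35 with chromosome medians subtracted, against 0.20. Averaging clusters in the F-test, added after seeing the data, gave 7 genes. The causes were not tested.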
